A study of Mus musculus with 24 samples.

Results

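The Jun and Fos AP-1 family was followed here through its 8 transcripts: Jun, Junb and Jund of the Jun side, Fos, Fosb, Fosl1 and Fosl2 of the Fos side, and Atf3, a related partner. The 8 genes were taken by symbol from a table of 47480 genes, and all 8 were among the 14772 genes that passed the filter on low counts. The members, and the gene lists used below, were chosen with earlier results of these data known. AP-1 is a dimer of basic leucine zipper proteins that binds short DNA elements in promoters and enhancers. Jun proteins pair with each other and with Fos proteins, whereas Fos proteins do not form stable dimers among themselves. In fibroblasts several of these genes are immediate early genes, switched on for a short time by serum and growth factors, and AP-1 activity is known for its part in proliferation, matrix breakdown and inflammation.

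The cells were wild-type mouse embryonic fibroblasts, a primary type of cell culture made from mouse embryos. The labels cross 3 factors: siCTRL or siCop1, DMSO or KL001, and no Dexa or Dexa, in 8 groups of 3 replicates. The groups were siCTRL with DMSO, siCTRL with KL001, siCop1 with DMSO and siCop1 with KL001, each without and with Dexa, so that every library carried an siRNA and either DMSO or KL001. The labels' siCop1 was read as an siRNA against Cop1, the part of a CRL4 ubiquitin ligase that selects substrates, of which Jun is a described one. KL001 is a compound known to stabilise cryptochromes, proteins of the circadian clock that the series title links to the assembly of this ligase. Dexa is written as in the labels. The sources used here give no dose, time or siRNA sequence. Nothing in the labels says that the replicates were separate cultures, so p-values measure only the spread between these samples, which may be technical.

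Library totals ran from 21409988 to 27875023 counts, and levels are given as CPM, counts divided by the TMM-scaled library size. Cop1, listed as Rfwd2, had 4.33 to 5.79 CPM in the 12 siCop1 libraries and 24.99 to 29.72 CPM in the 12 siCTRL libraries. All 10 fibroblast markers were detected in every library, with a summed level of 41700 to 58700 CPM, although Dcn stayed at or under 4.58 CPM and Lum at or under 1.67 CPM. Summed markers of other cell types were low: at most 2.81 CPM for endothelium (4 markers), 18.4 for macrophages (6), 71.5 for airway epithelium (6), 81.6 for squamous epithelium (7) and 96 for heart muscle (8). The 8 heart muscle markers summed to 1.21 to 3.54 CPM in siCop1 libraries and 1.94 to 96 CPM in siCTRL libraries. For macrophage markers the sum was 7.56 to 18.4 CPM in siCop1 libraries, against 4.65 to 9.83 CPM in the others. Of these 8 markers, Myl7 was at 0 in 21 of the 24 libraries, Myh6 in 15, Actc1 in 13, Nppa in 4, Tnnt2 in 3 and Ryr2 in 1. Tnni3 and Des were detected in every library. In 6 of 12 siCTRL libraries the heart muscle sum was no higher than 3.54 CPM.

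Promoters of 3 members are shown because Jun, Fos and Atf3 were lower with Dexa in all 4 settings tested, and each carries an element of the kind that ATF, CREB and Jun proteins are known to bind. The sequences are the 250 bases before the RefSeq transcription start (build GRCm38.p6), read along the gene's strand, with the match in capitals. Jun lies on the minus strand at chr4:95052223-95052472, Fos on the plus strand at chr12:85473640-85473889 and Atf3 on the minus strand at chr1:191183334-191183583.
Jun: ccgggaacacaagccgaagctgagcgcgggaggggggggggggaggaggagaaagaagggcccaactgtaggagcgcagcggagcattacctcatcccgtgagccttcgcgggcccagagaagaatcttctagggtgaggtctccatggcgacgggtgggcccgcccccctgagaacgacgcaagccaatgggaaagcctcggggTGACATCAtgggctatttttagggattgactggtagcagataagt
Fos: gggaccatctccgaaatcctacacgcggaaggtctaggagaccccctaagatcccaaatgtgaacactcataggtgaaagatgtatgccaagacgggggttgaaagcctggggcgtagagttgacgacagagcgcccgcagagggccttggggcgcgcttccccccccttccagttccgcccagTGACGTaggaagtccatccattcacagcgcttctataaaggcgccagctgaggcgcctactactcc
Atf3: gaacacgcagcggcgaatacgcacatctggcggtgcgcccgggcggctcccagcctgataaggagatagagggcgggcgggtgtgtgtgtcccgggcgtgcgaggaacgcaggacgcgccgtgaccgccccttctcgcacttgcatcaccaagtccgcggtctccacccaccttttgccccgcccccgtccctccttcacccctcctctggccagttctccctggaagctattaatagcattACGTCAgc
In Jun the capitals mark TGACATCA, a variant of the cAMP response element (CRE) known to bind Jun and ATF proteins, at bases 45 to 38 before the start. In Fos they mark TGACGT, the CRE core, at bases 66 to 61. In Atf3 they mark ACGTCA, the same core read on the other strand, at bases 8 to 3.

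Both strands of 32851 RefSeq promoter windows of the same length were searched for each motif. The CRE-type motif TGACNTCA, in which N is any base, was found in 7.49% of them and the CRE core TGACGT in 6.47%, and a full CRE counts in both. Both motifs were added to the search after these promoters had been read, so their presence is no test of a link with Dexa. RefSeq promoters were matched for 7 of the 8 members, all but Fosl1. Those of Junb, Jund, Fosb and Fosl2 held neither motif, and Junb too was called lower with Dexa in 3 of 4 settings. The 7 windows held no TGACTCA, the classical AP-1 element (4.46% of all windows), no E-box CACGTG (6.02%) and no CArG box (1.47%). The Jund window, chr8:70697489-70697738, does not adjoin the Jund exon that starts at chr8:70698949. Its lack of a match therefore does not describe the bases just before that exon. The Atf3 and Fosl2 windows lie inside the gene spans given below, so their RefSeq starts are not the outer ends of those spans. A match describes these letters only.

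The 8 genes lie on 7 chromosomes of the mouse build GRCm38 (GENCODE vM21). Jun is a single exon at chr4:95049034-95052222 on the minus strand, and Jund a single exon at chr8:70698949-70700616 on the plus strand. Junb lies at chr8:84974484-84978718 (minus strand), Fos at chr12:85473890-85477273 (plus), Fosb at chr7:19302696-19310051 (minus) and Fosl1 at chr19:5447547-5455946 (plus). Fosl2 lies at chr5:32135801-32157842 (plus) and Atf3 at chr1:191170296-191218039 (minus).

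Exon length here joins the exons of all transcripts of a gene, 9680 bases for Fosl2 against 6537 in its longest transcript. The order of members and their shares given later depend in part on that choice. Per kilobase of exon, Jund was the most abundant member, with a median over the 24 libraries of 63.6 CPM per kb. The medians of Jun (27.5 CPM per kb), Fosl2 (21.8) and Junb (20.6) came next, with overlapping ranges and an order that depended on the group. Jun was at 38.6 ± 0.597 CPM per kb in siCop1 DMSO without Dexa (SD, n = 3), above Fosl2 and Junb, but at 20.8 ± 0.323 in siCTRL KL001 with Dexa, where Fosl2 had 22.0 and Junb 21.7 ± 0.319. Fosl1 and Atf3 had medians of 9.73 and 9.53 CPM per kb and swapped order between siRNAs: in DMSO without Dexa Fosl1 was at 5.86 and Atf3 at 12.4 CPM per kb with siCTRL, and at 14.6 and 7.91 with siCop1. Fos, at 1.62 CPM per kb, and Fosb, at 0.924 CPM per kb, were the lowest. Between its lowest and its highest library, a member's level in CPM differed by a ratio of 1.2 for Fosl2, about 2 for Jun (1.96) and Junb (1.98), 3.33 for Fosl1 and 4.51 for Fos. Fos rested on the fewest reads, with 30 to 147 counts in a library.

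**Figure D1:**
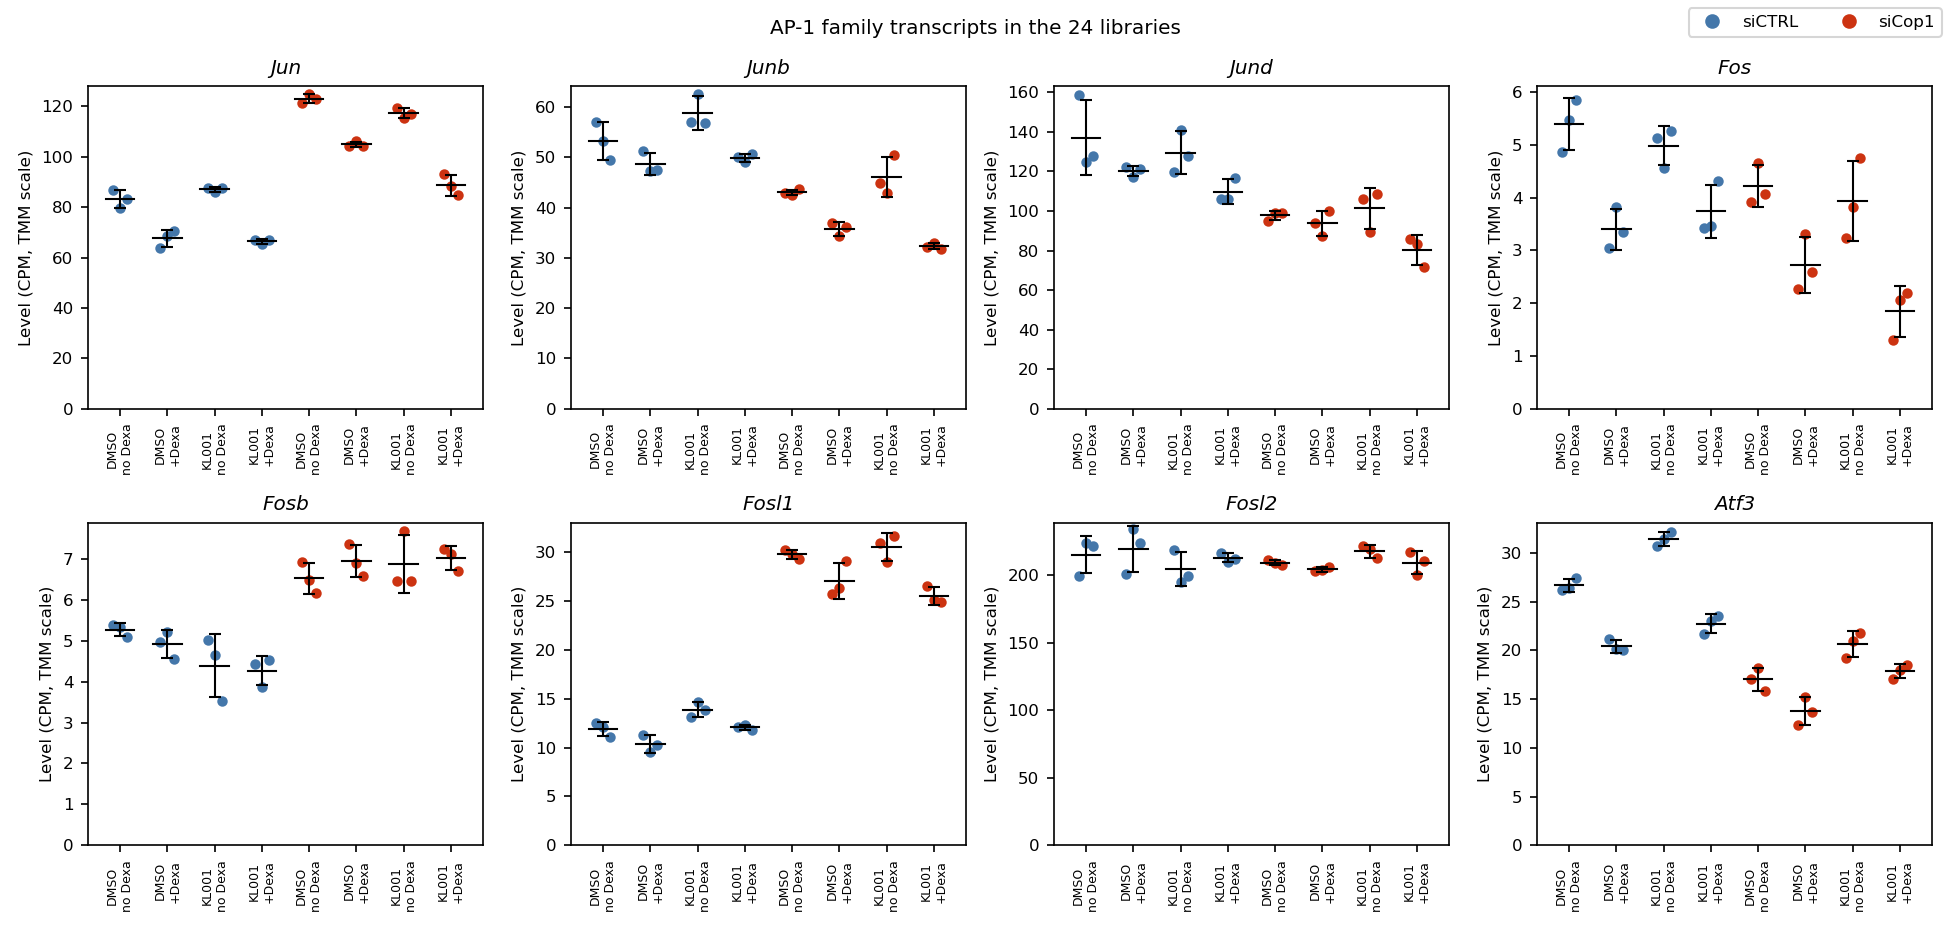
Level of each AP-1 member (CPM on the TMM scale, axis from 0) in the 24 libraries, grouped by compound and Dexa, with siCTRL in blue and siCop1 in red. Points are libraries and black bars are the mean and SD of 3. Jun, Fosb and Fosl1 are higher with siCop1 in each pair of groups, Junb, Jund and Atf3 lower, and Fosl2 shows no such step.

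The comparison of siCop1 with siCTRL asked how the family differed when Cop1 was knocked down. Jun, Fosl1 and Fosb were higher and Junb, Jund and Atf3 lower, in all 4 settings. With DMSO and no Dexa, 6 of 8 members changed at an adjusted p below 0.05 (edgeR's quasi-likelihood test), 3 higher and 3 lower. Of all 14772 genes tested, 29.4% changed there, 12.8% higher and 16.6% lower. The count was again 6 of 8 in DMSO with Dexa, against 31.1% of all genes, and 6 of 8 in KL001 without Dexa, against 32.7%. In KL001 with Dexa it was 7 of 8, against 30.1%. The members' median log2 change was -0.17 in DMSO without Dexa, beside -0.01 over all genes tested. In bulk RNA, fewer cells of a type and less RNA per cell cannot be told apart.

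Jun, the founding member and a described Cop1 substrate at the protein level, had 86.9, 79.6 and 83.1 CPM in the siCTRL libraries in DMSO without Dexa. The siCop1 libraries there had 121, 125 and 123 CPM. All 3 siCop1 libraries were above all 3 controls, and the same held in the other 3 settings. The log2 change was 0.56 (SE 0.037, adjusted p 6.74e-13). In DMSO with Dexa, Jun was at 67.7 ± 3.39 CPM with siCTRL and 104.9 ± 1.1 CPM with siCop1 (SD, n = 3), and it rose by 0.63 on the log2 scale. In KL001 the log2 changes were 0.43 without and 0.42 with Dexa. No alternative or left-out library removed any of these calls for Jun.

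Fosl1, which encodes Fra-1, a Fos protein without the strong activation domain of Fos, had the largest change of the family. Its level was 12.5, 12.1 and 11.1 CPM in the siCTRL libraries in DMSO without Dexa and 30.2, 29.7 and 29.3 CPM in the siCop1 libraries. The groups did not overlap, and over all settings the 12 siCop1 libraries ran from 24.9 to 31.7 CPM and the 12 siCTRL libraries from 9.52 to 14.7 CPM. The log2 change was 1.32 (SE 0.063, adjusted p 5.35e-16), a 2.5-fold difference. With Dexa added to DMSO it was 1.38, and in KL001 it was 1.14 without and 1.08 with Dexa.

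Fosb, an immediate early Fos protein, was low but followed the same direction. The siCTRL libraries in DMSO without Dexa had 5.38, 5.35 and 5.08 CPM, and the siCop1 libraries 6.93, 6.49 and 6.17 CPM. The groups did not overlap, with a log2 change of 0.31 (SE 0.104, adjusted p 0.0243). This call did not hold in DESeq2 (adjusted p 0.0563), nor in edgeR's test without siCTRL replicate 3 (0.0685), siCop1 replicate 1 (0.109) or siCop1 replicate 2 (0.0523). The change was 0.50 in DMSO with Dexa, and in KL001 0.65 without and 0.72 with Dexa, each called under every alternative run.

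Junb and Jund, the Jun proteins that activate more weakly than Jun at many promoters, went the other way. Junb had 57.0, 53.3 and 49.5 CPM in the siCTRL libraries in DMSO without Dexa, and 42.9, 42.6 and 43.6 CPM in the siCop1 libraries. All siCop1 libraries were lower, and the log2 change was -0.31 (SE 0.054, adjusted p 4.52e-05). In the other settings Junb fell by 0.45 (DMSO, Dexa), by 0.35 (KL001, no Dexa) and by 0.63 (KL001, Dexa) on the log2 scale. Jund had 159, 125 and 128 CPM with siCTRL and 95.02, 99 and 99.2 CPM with siCop1 in DMSO without Dexa. Its control replicate 1 was high, and all 3 controls were above the siCop1 libraries. The log2 change was -0.49 (SE 0.093, adjusted p 0.000453), and -0.37 without that high control, the smallest change when single libraries were left out.

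Atf3, a stress-induced protein that pairs with Jun proteins and can repress as a homodimer, had 26.2, 26.4 and 27.5 CPM in the siCTRL libraries in DMSO without Dexa. The siCop1 libraries had 17.0, 18.2 and 15.9 CPM, all of them lower. The log2 change was -0.65 (SE 0.062, adjusted p 1.81e-09). With Dexa added to DMSO it was -0.57, and in KL001 it was -0.61 without and -0.35 with Dexa, and all 4 calls held under every alternative run.

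Fos, the classical serum-induced member, was called in 1 setting by edgeR's test on all 24 libraries without a block. In KL001 with Dexa it had 3.43, 3.47 and 4.32 CPM with siCTRL and 1.29, 2.05 and 2.19 CPM with siCop1. The groups did not overlap there, with a log2 change of -1.02 (SE 0.18, adjusted p 5.09e-05). Its log2 values were -0.35, -0.31 and -0.34 in the other settings, with adjusted p-values of 0.0725 and 0.163 in DMSO, without and with Dexa, and 0.0837 in KL001 without it. Fos was called in DMSO without Dexa with the replicate block (0.0384) and with only the groups compared (0.0315). In KL001 without Dexa it was called with the block (0.0411) and without siCop1 replicate 3 (log2 -0.50, adjusted p 0.0228).

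Fosl2, which encodes Fra-2, had 199.5, 224 and 222 CPM with siCTRL and 211, 209 and 208 CPM with siCop1 in DMSO without Dexa, where the groups overlapped. Its log2 values lay between -0.10 and 0.09 in the 4 settings, and none was called. In DMSO with Dexa it was called without siCTRL replicate 1 (log2 -0.17, adjusted p 0.00253), with no filter (0.0329) and with the GC and length trend removed (0.0049), each time as lower. In KL001 without Dexa it was called as higher without siCTRL replicate 1 (log2 0.14, adjusted p 0.0233), with library totals (0.0127) and with the trend removed (0.0224).

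**Figure D2:**
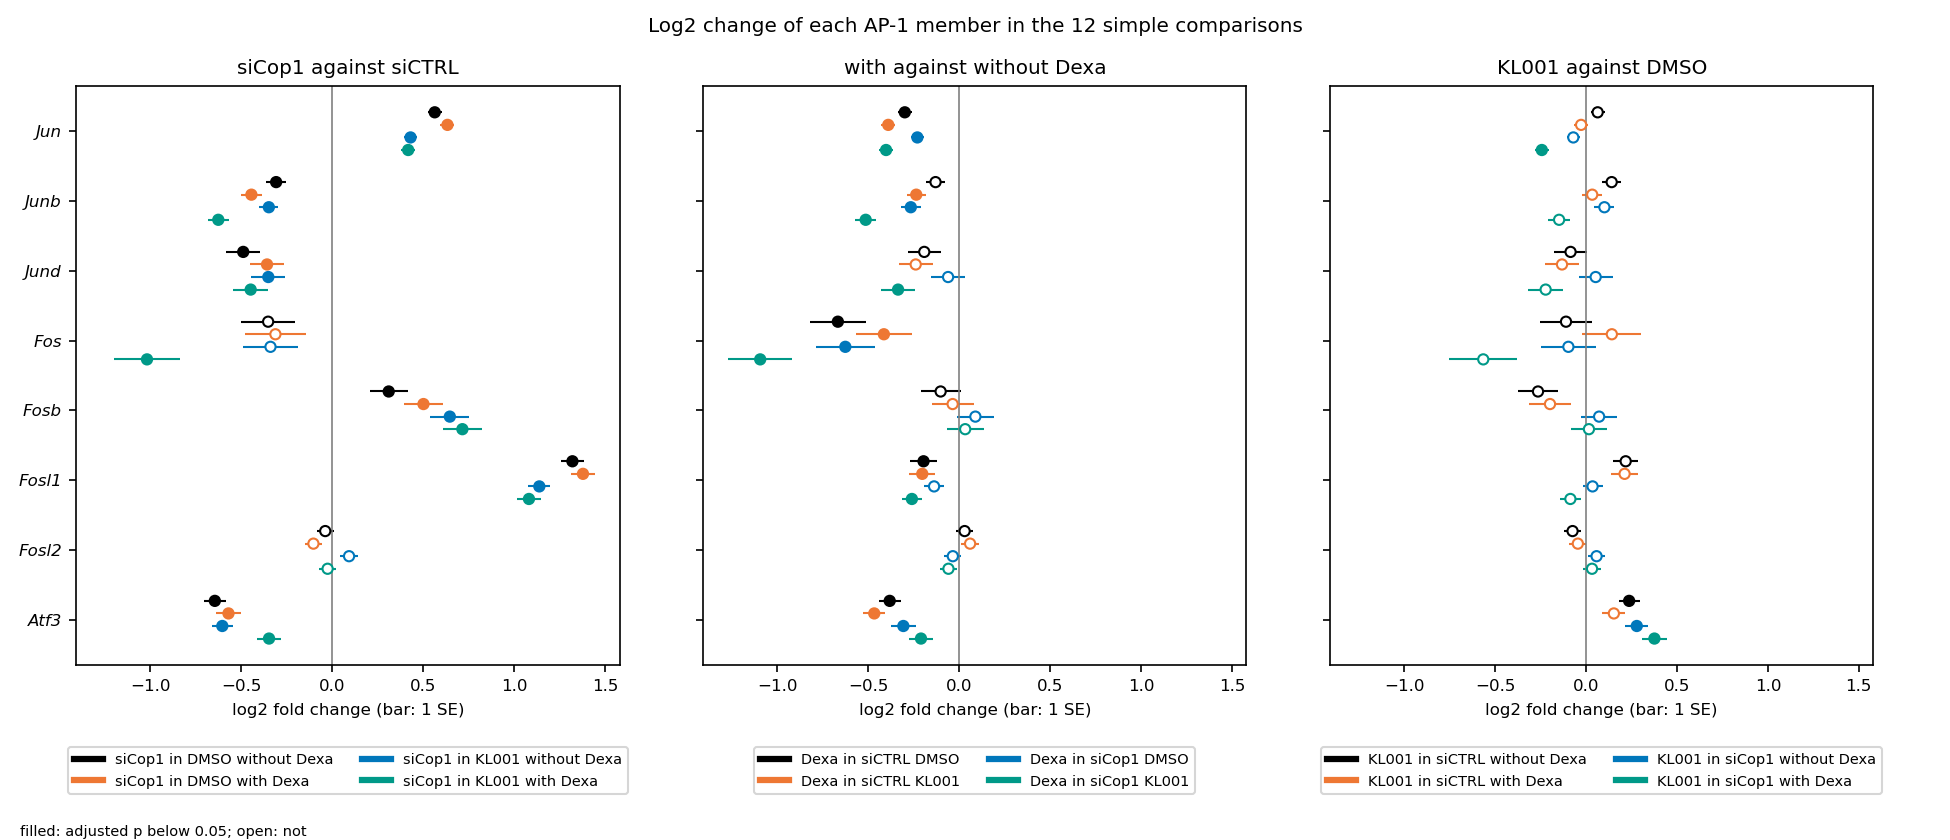
Log2 fold change of the 8 members (points, with bars of 1 SE) for siCop1 against siCTRL, with against without Dexa, and KL001 against DMSO, in 4 settings each. Filled points had an adjusted p below 0.05. The siCop1 panel holds changes on both sides of 0, with Fosl1 between 1.08 and 1.38, and every filled point in the Dexa panel lies below 0.

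The make-up of the family differed between the siRNAs when levels were put on the per-kilobase scale. In DMSO without Dexa, Jun made up 19.9% ± 1.28 of the Jun-side sum with siCTRL and 33.3% ± 0.309 with siCop1 (SD, n = 3). Jund went from 62.4% ± 2.01 to 50.6% ± 0.384 of that sum, and Junb from 17.7% ± 1.05 to 16.1% ± 0.312. The Jun-side sum itself was 131 ± 13.7 CPM per kb with siCTRL and 116 ± 1.95 with siCop1. On the Fos side, Fosl1 went from 18.8% ± 1.78 to 37.4% ± 0.228 and Fosl2 from 71.1% ± 1.55 to 55.3% ± 0.296. The Fos-side sum was 31.2 ± 1.34 CPM per kb with siCTRL and 39.1 ± 0.439 with siCop1. These shares restate the levels above and were not tested on their own.

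**Figure D3:**
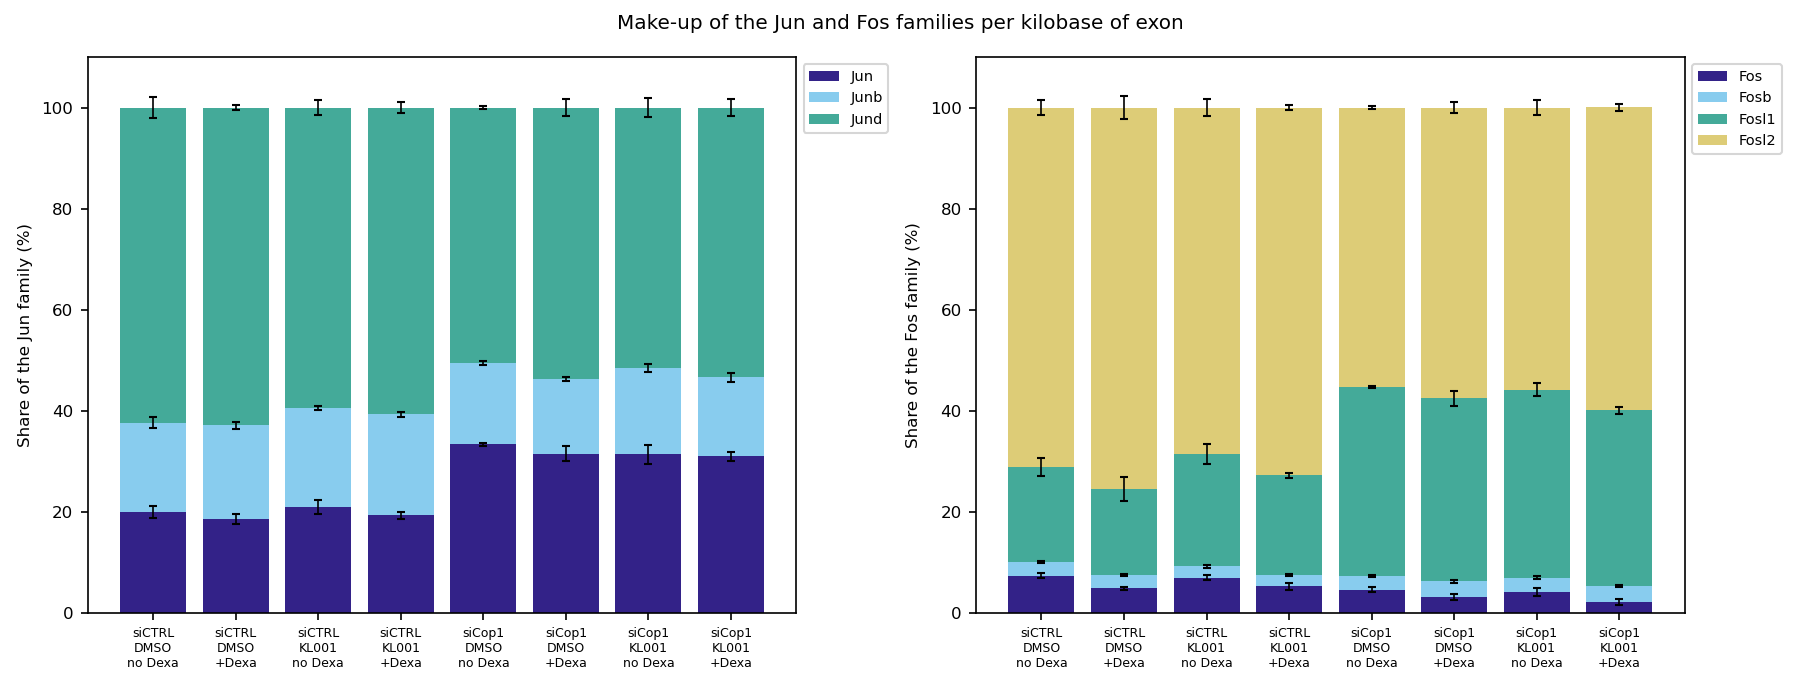
Mean share of each member in the Jun-side sum (left) and the Fos-side sum (right) in the 8 groups, from levels per kilobase of exon. Bars are means of 3 libraries and lines at the top of each segment are the SD of that segment's share. The Jun share rises from 19.9% to 33.3% and the Fosl1 share from 18.8% to 37.4% between siCTRL and siCop1 in DMSO without Dexa.

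Several other measures moved with these differences. In the 6 siCTRL libraries with a heart muscle sum no higher than in siCop1, none of them in DMSO without Dexa, 4 of the 6 members called with siCop1 in all settings had ranges that overlapped those of the 12 siCop1 libraries when all settings were pooled. Jun was at 63.9 to 87.6 CPM against 84.7 to 125 CPM, Junb at 47.5 to 56.9 against 31.7 to 50.5, Jund at 106 to 128 against 71.6 to 109, and Atf3 at 20.0 to 32.1 against 12.4 to 21.8. Fosl1, at 10.3 to 13.8 against 24.9 to 31.7 CPM, and Fosb, at 3.52 to 5.01 against 6.17 to 7.68 CPM, did not overlap. Within each setting none of the 6 overlapped, which adds nothing to the calls by which they were picked. With all 12 siCTRL libraries pooled the same 4 members overlapped the siCop1 libraries. Such pooled ranges mix Dexa and KL001 settings, so they cannot show whether the heart muscle markers matter here. The fibroblast marker sum in DMSO without Dexa was 55300 to 58700 CPM with siCTRL and 48700 to 50200 CPM with siCop1. The part of the heart muscle, fibroblast and macrophage markers in these results was not tested. Some members also overlap other genes on the opposite strand, and no source used here gives the strand setting of the counting, so their values are uncertain to that extent. Jun shares 689 bases with Junos, which rose with siCop1 in DMSO without Dexa by 1.05 on the log2 scale at a low level (mean 3.58 CPM over all libraries). All these overlaps are given over whole gene spans, introns included. Fosl1, whose exons hold 2033 bases, shares 2767 bases of its span with Ccdc85b, whose log2 value was -0.01 (adjusted p 0.975 in edgeR's test). Junb shares 351 bases with Prdx2 (log2 0.10, adjusted p 0.0531) and Jund 919 bases with Gm11175 (log2 -0.38, adjusted p 0.537).

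With Dexa, every member that changed was lower. In siCTRL DMSO 4 of 8 members fell and 0 rose, whereas 26.8% of all genes tested changed, 12.7% higher and 14.1% lower. The count was 5 of 8 in siCTRL KL001, where 26.8% of all genes changed, 4 of 8 in siCop1 DMSO (23.7%) and 6 of 8 in siCop1 KL001 (24.5%). The members' median log2 change was -0.19 in siCTRL DMSO, beside -0.01 over all genes tested. The comparisons of siCop1 and of Dexa in DMSO share the siCTRL DMSO libraries without Dexa.

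Fos had the family's largest decrease with Dexa in 3 of 4 settings, and in siCTRL KL001 that of Atf3 was larger. In siCTRL DMSO it was at 4.87, 5.47 and 5.84 CPM without Dexa and 3.04, 3.82 and 3.35 CPM with Dexa. All libraries with Dexa were lower, and the log2 change was -0.67 (SE 0.153, adjusted p 0.00112). It was -0.63 in siCop1 DMSO and -1.09 in siCop1 KL001. In siCTRL KL001 it was -0.41 with an adjusted p of 0.0433, a call that was lost in DESeq2 (0.0907) and without replicate 1 (0.0958) or replicate 3 (0.126) of the libraries without Dexa, or replicate 1 (0.161) or replicate 2 (0.157) of those with Dexa.

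Jun fell with Dexa in each setting. In siCTRL DMSO it went from 86.9, 79.6 and 83.1 CPM without Dexa to 64.0, 68.6 and 70.6 CPM with Dexa. The groups did not overlap, with a log2 change of -0.30 (SE 0.039, adjusted p 3.69e-07). The log2 changes were -0.39 in siCTRL KL001, -0.23 in siCop1 DMSO and -0.40 in siCop1 KL001. Atf3 likewise fell in all 4 settings. Its siCTRL DMSO libraries with Dexa had 21.2, 20.1 and 20.0 CPM, below the 26.2 to 27.5 CPM without Dexa, and the log2 change was -0.38 (SE 0.061, adjusted p 1.05e-05). The others were -0.47 in siCTRL KL001, -0.31 in siCop1 DMSO and -0.21 in siCop1 KL001. The last, with an adjusted p of 0.0152, was not called without replicate 3 of the libraries without Dexa (0.0985) or replicate 1 of those with Dexa (0.0836).

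Junb fell in 3 of 4 settings. The decrease was largest in siCop1 KL001, where it went from 45.0, 42.9 and 50.5 CPM to 32.2, 32.9 and 31.7 CPM. The groups did not overlap there, and the log2 change was -0.51 (SE 0.057, adjusted p 2.28e-08). It was -0.24 in siCTRL KL001 and -0.27 in siCop1 DMSO, and in siCTRL DMSO the log2 value of -0.13 missed the threshold (adjusted p 0.074) but passed it without replicate 3 of the libraries without Dexa (0.0314) and with the GC and length trend removed (0.0138). For Jund the threshold was passed in siCop1 KL001, at 106, 89.4 and 109 CPM without Dexa and 86.0, 83.2 and 71.6 CPM with Dexa. Those groups did not overlap, but the log2 change of -0.34 (adjusted p 0.0138) lost its call in a fit of only these groups (0.0974). It also did so without replicate 1 (0.056) or replicate 3 (0.0687) of the libraries without Dexa, or replicate 3 of those with Dexa (0.0756). Jund is rich in GC, at 67.1% of its longest transcript, and with the trend on GC and length removed its change there was -0.16 and still called (adjusted p 0.00316). In siCTRL KL001 Jund was at -0.24 with an adjusted p of 0.0665, and all libraries with Dexa were lower. It was called there with no filter (6.56e-07), with the trend removed (0.00886), with only the groups compared (0.0117), in DESeq2 (0.0251) and without replicate 1 of the libraries without Dexa (0.0434). In siCTRL DMSO it was at -0.19 with an adjusted p of 0.142, again with all libraries lower, and was called with no filter (0.000114) and with the trend removed (0.00187).

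Fosl1 had log2 values between -0.26 and -0.14 with Dexa. The change was -0.26 in siCop1 KL001 (adjusted p 0.000678), where libraries went from 30.9, 29.0 and 31.7 CPM to 26.5, 25.0 and 24.9 CPM without overlap. In siCTRL DMSO it was -0.20, with overlapping libraries and an adjusted p of 0.0472 that rose above 0.05 under 6 of 7 other analyses of the full set, among them RLE scaling (0.0501) and DESeq2 (0.104), and without any of 4 single libraries (0.142 to 0.27). In siCTRL KL001 it was -0.20 with an adjusted p of 0.0311, which rose above 0.05 without any of 5 of the 6 libraries (0.0616 to 0.145) and under 4 of 7 other analyses, among them DESeq2 (0.0787). In siCop1 DMSO the log2 value was -0.14 with an adjusted p of 0.0737 and all libraries lower. It was called there with only the groups compared (0.0365), with the trend removed (0.0202) and without replicate 3 of the libraries with Dexa (log2 -0.20, adjusted p 0.0189). Fosb and Fosl2 were not called in any setting, with log2 values from -0.10 to 0.09 for Fosb and -0.06 to 0.06 for Fosl2.

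KL001 changed few members, with Atf3 higher and Jun lower among those that passed the test. In siCTRL without Dexa KL001 changed 1 of 8 members, Atf3, whereas 6.73% of all genes tested changed, 3.22% higher and 3.51% lower. In siCTRL with Dexa 0 of 8 changed in edgeR's test, against 10.6% of all genes, and 0 in DESeq2. At an unadjusted p below 0.05 in edgeR's test there were 2 of 8, beside 3443 of all 14772 genes tested. The counts were 1 of 8 in siCop1 without Dexa, against 4.09%, and 2 of 8 in siCop1 with Dexa, against 5.46%. The members' median log2 value in siCTRL without Dexa was -0.005, beside -0.003 over all genes. The sum of the fibroblast markers was also lower with KL001, at 48100 to 52700 CPM in siCTRL without Dexa against 55300 to 58700 CPM in DMSO, and its part in these values was not tested.

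Atf3 rose with KL001 in 3 of 4 settings. In siCTRL without Dexa it had 26.2, 26.4 and 27.5 CPM in DMSO and 30.7, 31.5 and 32.1 CPM in KL001, without overlap. The log2 change was 0.24 (SE 0.058, adjusted p 0.00921), and in a fit of only these groups the adjusted p was 0.0521. The change was 0.28 in siCop1 without Dexa, where the call was lost without replicate 3 of the DMSO libraries (0.0771) or of the KL001 libraries (0.0686). It was 0.38 in siCop1 with Dexa (adjusted p 0.000571), and in siCTRL with Dexa the log2 value was 0.15 (adjusted p 0.125). Jun was lower with KL001 in siCop1 with Dexa, at 93.0, 88.3 and 84.7 CPM against 104.3, 106 and 104.3 CPM in DMSO. Those groups did not overlap, with a log2 change of -0.24 (adjusted p 6.94e-05), and Jun's other 3 values ran from -0.07 to 0.06 and were not called. Fos was at -0.57 in the same setting with an adjusted p of 0.0794, and was called with no filter (0.0365) and with the replicate block (0.0413).

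Fosl1 missed the threshold with KL001 in siCTRL, although all KL001 libraries were higher. Without Dexa it had 12.5, 12.1 and 11.1 CPM in DMSO and 13.1, 14.7 and 13.8 CPM in KL001, with a log2 value of 0.22 (SE 0.07, adjusted p 0.0569). With Dexa it had 11.3, 9.52 and 10.3 CPM in DMSO and 12.05, 12.3 and 11.8 CPM in KL001, with a log2 value of 0.21 (adjusted p 0.0657). Fosl1 was called in these settings with the GC and length trend removed (0.0127 without and 0.00368 with Dexa). It was also called without KL001 replicate 1 in the first (0.0372) and without DMSO replicate 1 in the second (0.0415). Junb was at 0.14 without Dexa (adjusted p 0.114) and 0.03 with Dexa (0.772) in siCTRL. With the trend removed Junb was called in both (0.00176 and 0.0268), and without DMSO replicate 1 in the first (0.0343).

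Whether one factor altered the response to another was tested with 6 interaction terms, and 0 of 8 members passed in any of them by edgeR's test. By DESeq2 no member with an adjusted p passed. DESeq2 gave no adjusted p for Fos and Fosb in siCop1 by KL001, without and with Dexa, nor for Fos in KL001 by Dexa in siCop1. At an unadjusted p below 0.05 there were 0 members for siCop1 by Dexa in DMSO and 3 in KL001, 3 for siCop1 by KL001 without Dexa and 5 with Dexa, and 0 for KL001 by Dexa in siCTRL and 2 in siCop1. Of all 14772 genes tested, 1123, 1133, 982, 1023, 888 and 670 had an unadjusted p below 0.05 in that order. At an adjusted p below 0.05 the terms passed for 0.67%, 0.562%, 0%, 0.0677%, 0% and 0.0677% of all genes. The term with the smallest adjusted p was that of Junb for siCop1 by Dexa in KL001, a log2 value of -0.28 (SE 0.078, adjusted p 0.141). It passed without replicate 2 of siCTRL KL001 without Dexa (0.0378), with no filter on low counts (0.0145) and with the GC and length trend removed (0.00437). For Jun the term for siCop1 by KL001 with Dexa was -0.22 (SE 0.055, adjusted p 0.197). For Fos the terms for siCop1 by Dexa in KL001 (-0.68, adjusted p 0.319) and siCop1 by KL001 with Dexa (-0.71, adjusted p 0.484) were larger but had SEs of 0.235 and 0.248.

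Genes described as AP-1 targets were followed with a list of 34, of which 30 were tested. The list was chosen with earlier results of these data known. With siCop1 in DMSO without Dexa 18 rose and 5 fell, with a median log2 change of 0.31 beside -0.01 over all genes. Of all genes tested 12.8% rose and 16.6% fell there. The list's largest increases were in matrix metalloproteinases, enzymes that cut the extracellular matrix. Mmp3 (stromelysin) went from 24.7 ± 1.24 CPM with siCTRL to 98.0 ± 1.89 CPM with siCop1 (SD, n = 3), an increase of 1.98 on the log2 scale. Mmp13 (collagenase) rose by 2.49 from 0.45 CPM and Mmp10 by 2.99 from 0.091 CPM, levels that rest on few reads. Vegfa (a growth factor for vessels, log2 -0.43), Hmox1 (haem breakdown, -0.39) and Tnc (a matrix protein, -0.34) had the largest decreases. In the other 3 settings 15 to 18 rose and 5 to 8 fell, where between 30.1% and 32.7% of all genes changed.

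With Dexa in siCTRL DMSO 5 of the 30 rose and 18 fell, with a median of -0.22 beside -0.01 over all genes, of which 12.7% rose and 14.1% fell. Cxcl1, a chemokine, went from 27.8 ± 0.149 to 14.3 ± 1.53 CPM (log2 -0.96), Ptgs2, which makes prostaglandins, from 25.9 ± 0.428 to 14.0 ± 0.328 CPM (-0.89), and Plat, a plasminogen activator, from 105 ± 1.19 to 59.9 ± 0.526 CPM (-0.82). Itga5 (0.49), an integrin subunit, and Hmga2 (0.29), a chromatin protein, were among those that rose. Hmga2 also rose with siCop1, by 1.44, and Ptgs2 rose with siCop1 by 0.52. With KL001 in siCTRL without Dexa 5 rose and 2 fell, beside 3.22% and 3.51% of all genes, among them Ccnd1 (cyclin D1, 0.25) and Hmga2 (0.26) upward and Plat (-0.24) and Tnc (-0.23) downward.

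**Figure D4:**
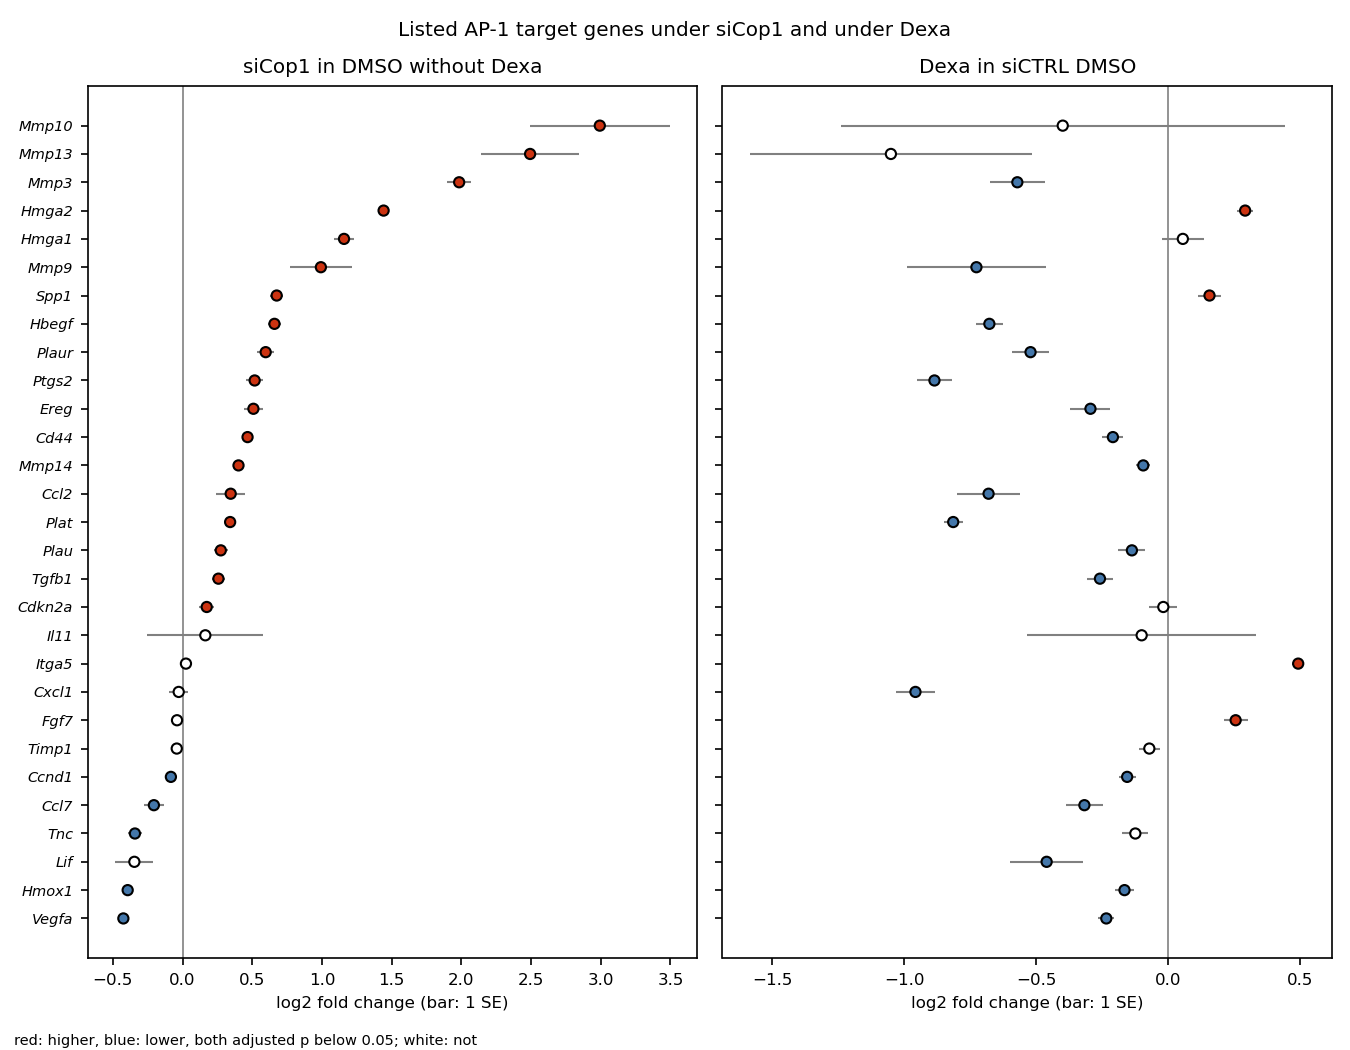
Log2 fold change (points, with bars of 1 SE) of 29 of the 30 tested AP-1 target genes for siCop1 in DMSO without Dexa (left, which sets the order) and for Dexa in siCTRL DMSO (right). Red and blue points rose and fell at an adjusted p below 0.05 and white points did not pass. On the left 18 are red and 5 blue, on the right 4 are red and 18 blue, and both share the siCTRL DMSO libraries without Dexa.

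The other immediate early genes, 19 of 20 tested, split in both comparisons. With Dexa in siCTRL DMSO 5 rose and 10 fell, beside 12.7% and 14.1% of all genes, and the median was -0.23 beside -0.01. Egr3 (log2 -1.73), Egr2 (-1.39) and Arc (-1.01), which are switched on together with Fos by serum or neuronal activity, had the largest decreases, while Ctgf (2.74), a secreted matrix protein, Dusp1 (0.94), a phosphatase of MAP kinases, and Zfp36 (0.69), which shortens the life of mRNAs, rose. With siCop1 in DMSO without Dexa 4 rose and 6 fell, beside 12.8% and 16.6% of all genes (median 0.03 beside -0.01), led by Nr4a2 (0.48), Ier3 (0.37) and Myc (0.36) upward and Btg2 (-0.35) and Arc (-0.29) downward. With KL001 in siCTRL without Dexa 3 rose and 1 fell, beside 3.22% and 3.51%.

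Of the other leucine zipper partners, 15 of 17 were tested. Over all genes 12.8% rose and 16.6% fell with siCop1 in DMSO without Dexa, 12.7% and 14.1% with Dexa in siCTRL DMSO, and 3.22% and 3.51% with KL001 in siCTRL without Dexa. With siCop1 in DMSO without Dexa 3 rose, Crem (0.46), Atf1 (0.28) and Atf7 (0.21), and 3 fell, Atf4 (-0.32), Jdp2 (-0.24) and Nfe2l1 (-0.20). With Dexa in siCTRL DMSO Maf rose by 0.96 and 6 fell, among them Creb1 (-0.17) and Nfe2l1 (-0.16). With KL001 1 rose, Atf4 (0.15), and 1 fell, Maf (-0.20).

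Among 19 tested kinases and nuclear factors upstream of Jun and Fos, 3 rose and 3 fell with siCop1 in DMSO without Dexa, a count near the 29.4% of all genes that changed there and no result about this list. With Dexa in siCTRL DMSO 5 rose and 5 fell, where 26.8% of all genes changed. Elk3, a partner of the serum response factor, rose with siCop1 by 0.32 and Map2k1, a kinase above ERK, fell by 0.33. Among the 11 genes of ligases that turn over Jun, siCop1 lowered Rfwd2 (-2.56), Det1 (-0.17) and Ddb1 (-0.13), and Fbxw7 (0.28) and Trib1 (0.27) rose. That is 5 of 11 beside 29.4% of all genes. The 5 include Rfwd2 (Cop1), the target of the siRNA, whose fall was set by the design. With Dexa 3 of these 11 fell, Trib2 (-0.45), Trib1 (-0.23) and Rfwd2 (-0.15). This count is near the 26.8% of all genes that changed and is no result about this list.

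Likeness across the 24 libraries was described by Pearson's r of log2 CPM over 11601 genes, and libraries of a group share their siRNA, compound and Dexa. Among the profiles nearest to Fosl1 were Bin1 (r = 0.979) and Cmtm3 (0.977). Nearest to Jun were Apcdd1 (0.981), Arhgef40 (0.977) and Arl4c (0.974), and nearest to Atf3 was Vegfa (0.976), a gene of the target list, with Siglecg (0.965) and Trib3 (0.963). Junb was nearest to Tagln2 (0.958), Jund to Fnta (0.935), Fosb to Pls1 (0.927), Fos to Ajuba (0.900) and Fosl2 to Gatad2b (0.794). Among the members themselves Junb and Jund had an r of 0.900, Jun and Fosl1 0.884, Fosb and Fosl1 0.823 and Junb and Atf3 0.821. Fosb against Junb gave -0.740 and Atf3 against Fosb -0.712, whereas Fosl2 stayed between -0.222 and 0.109 against every other member.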

How the data were processed

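RNA of 24 libraries was read as stranded mRNA libraries in single 50-base reads, per the labels' protocols. The authors deposited raw read counts per gene symbol, and a normalized table (unit: signal) in which each library's counts are divided by 1 factor. Recomputed size factors matched 100% of the deposited signal values within 0.011, and that table was used for this check only. The submitters' processing notes name bcl2fastq 1.8.4, STAR 2.4.5a, featureCounts, Subread 1.4.6-p3, Picard 1.126, DESeq2 and the builds GRCm38 and mm10, without roles. No source used here gives the annotation or the strand setting of the counting.

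Columns were assigned by the sample descriptions. Low genes were removed with edgeR's filterByExpr by group (at least 10 counts, total of at least 15). Counts were scaled with TMM and fitted across all 14772 genes with edgeR 4.0.16 (quasi-likelihood, robust, R 4.3.3), 1 mean per group, with no covariate. Adjusted p-values are two-sided and Benjamini-Hochberg adjusted over all genes tested, with 0.05 as the threshold for a change. Each SE was obtained by dividing the log2 fold change by the root of its F statistic. Exon lengths, GC content and overlaps are from GENCODE vM21 (GRCm38), promoters from RefSeq (GRCm38.p6). Replicates differed by more than sampling noise (chi-square per degree of freedom 1.57 to 8.54).

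Named genes are the 8 members, Rfwd2, up to 3 genes most correlated with each member among those with a mean of at least 1 CPM, and up to 3 changed genes in each direction per list and effect in the first setting. Ptgs2 and Hmga2 under siCop1 were named after their values were seen. Some genes that the rule names are not reported here. The members and lists were chosen with earlier results of these data known. Alternatives were RLE scaling, library totals, no filter, DESeq2 1.42.0, a replicate block, only the groups compared, each library left out, and, chosen after seeing the data, removal of each library's trend on GC and length (96.8% of genes matched). The pipeline was tested on simulated data.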

Additional observations from a re-analysis of the deposited data

How the results depend on the processing

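Of 2155 recomputed values of single members, 0 that were called changed sign, and 56 that were not called did. A further 5 values, for which DESeq2 gave no adjusted p, are not among the 2155. The 8 counts of members changed by siCop1 and by Dexa stayed within 1.5 times under every alternative, except Dexa in siCTRL KL001, where leaving out single libraries gave 3 to 5 members against 5. The 3 came without siCTRL KL001 without Dexa replicate 3, or with Dexa replicate 1 or replicate 2. For KL001 in siCTRL without Dexa the count of 1 became 0 with only the groups compared, 3 with the GC and length trend removed and 1 to 2 with single libraries left out (2 without replicate 1 of either group). In siCTRL with Dexa the 0 became 1 with no filter, 3 with the trend removed and 0 to 1 with single libraries left out (1 without DMSO replicate 1). In siCop1 without Dexa leaving out libraries gave 0 to 1 (0 without replicate 3 of either group), and in siCop1 with Dexa no filter gave 4 against 2. For siCop1 by Dexa in KL001 no filter, the trend removed and leaving out siCTRL KL001 without Dexa replicate 2 each gave 1 against 0 (range 0 to 1), and for KL001 by Dexa in siCop1 no filter gave 1. The causes were not tested.

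Replicate numbers are shared between groups, and the column names share a stem within each siRNA only. The replicate block joined equal numbers across both siRNAs, so it does not follow those stems. Same-numbered libraries deviated together, with every r above 0.1, for Dexa in siCTRL KL001 (0.165, 0.464 and 0.365) and KL001 in siCTRL with Dexa (0.167, 0.368 and 0.268), where the replicate block changed no member's call. In the other 10 comparisons they did not, and there the numbers are not known to pair the libraries. With the replicate block 7 members changed with siCop1 in DMSO without Dexa and 3 with Dexa in siCTRL DMSO. Fos gained a call for siCop1 in DMSO (adjusted p 0.0384) and in KL001 (0.0411) without Dexa and for KL001 in siCop1 with Dexa (0.0413), and Fosl1 lost that for Dexa in siCTRL DMSO (0.055).

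Over all genes, the alternatives gave 225 to 1583 genes for KL001 in siCTRL without Dexa (994 as reported), 928 to 2337 with Dexa (1560), 421 to 958 in siCop1 without Dexa (604) and 502 to 1435 with Dexa (807). The interaction counts of 99, 83, 0, 10, 0 and 10 ranged over 71 to 230, 43 to 169, 0 to 61, 2 to 62, 0 to 133 and 1 to 43. Depth limits Fos and Fosb most, with 30 to 199 counts in a library.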
